A study of Sus scrofa with 9 samples.

Results

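The peroxisome proliferator-activated receptors (PPARs), their coactivator PGC-1alpha and the transcription factor C/EBPalpha were examined in skeletal muscle of Bama minipigs, a small Chinese breed, on 2 diets. Of 5 genes sought, PPARG, PPARA, PPARD, PPARGC1A (the gene of PGC-1alpha) and CEBPA, 4 had a probe whose RefSeq accession carried their name. They held 7 of the 43581 probes used: 3 for PPARG, 2 for PPARD, 1 for PPARA and 1 for PPARGC1A. CEBPA had no named probe and was not analysed here.

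The PPARs are nuclear receptors that are activated by fatty acids and their derivatives and that bind DNA together with a retinoid X receptor (RXR). PPARG, with C/EBPalpha, drives the formation of fat cells and keeps their genes of lipid storage active, whereas PPARA and PPARD are known for the genes of fatty acid oxidation. PGC-1alpha binds the PPARs and other factors and raises the transcription of mitochondrial genes, and in muscle its gene is known to respond to contraction and fasting.

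Longissimus dorsi of 9 animals was measured, 1 array per animal. The 6 animals of the HFHSD group received high-fat high-sucrose feed made of 53% basal diet, 37% sucrose and 10% lard. The 3 animals of the control diet (CD) group received standard chow. Feeding lasted 23 months from an age of 6 months, on a restricted schedule, in gonadally intact animals of both sexes kept in single pens and fasted overnight before sampling. Which animals were male is not given, and the labels' texts differ on the number of CD animals, 3 or 6, of which 3 have an array. The comparison asks how muscle transcripts differ between animals fed fat and sugar for long and their controls, and the series title names lipid deposition and reduced muscle growth.

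The arrays came from 3 slides. HFHSD 5 and HFHSD 6 shared slide 1, whose scan day differed from that of the other slides. CD 1 was on slide 2 beside HFHSD 1, HFHSD 3 and HFHSD 4. CD 2 and CD 3 were on slide 3 beside HFHSD 2. CD 1 stood apart, with 36.8% of probes well above background against 51.2% to 68.9% on the other 8 arrays. All 15 measured skeletal muscle markers were well above background on each of the 9 arrays. Values are log2 of the processed signal minus the 75th percentile of the array, so a value of 0 is that percentile, and levels of different probes cannot be set against each other. Differences are HFHSD minus CD, with adjusted p-values from limma over all 27925 tested probes.

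PPARG was higher in HFHSD muscle by each of its 3 probes, by close to a doubling, but did not pass the test over all probes. By its brightest probe, the CD animals had -0.46 (CD 1), -0.44 (CD 2) and -0.60 (CD 3). The HFHSD animals ran from -0.32 to 1.04, with a median of 0.57. All 6 HFHSD arrays were above all 3 CD arrays, although HFHSD 4, at -0.32, lay near them, and HFHSD 6, at 1.04, was the highest. The CD values lay close together, with a mean of -0.50 ± 0.084 (SD, n = 3), while the HFHSD values spread more widely, with a mean of 0.46 ± 0.47 (SD, n = 6). The log2 difference was 0.96 (SE 0.28, 95% interval 0.33 to 1.59, limma adjusted p = 0.119), which corresponds to 1.94-fold with an interval of 1.26-fold to 3.00-fold. The exact two-sided permutation test over the 84 splits of the arrays gave p = 0.0238 without adjustment. In whole muscle, a larger number of cells of a type that makes a transcript and more transcript per cell cannot be told apart.

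By the other PPARG probes too, HFHSD 4 was the lowest and HFHSD 6 the highest HFHSD array. The second probe ran from -0.63 to -0.42 in CD and from -0.19 to 1.03 in HFHSD, again without overlap. Its log2 difference was 0.999 (SE 0.27, limma adjusted p = 0.0996). The third probe ran from -0.86 to -0.57 in CD and from -0.63 to 0.73 in HFHSD, where HFHSD 4 fell within the CD range. Its log2 difference was 0.88 (SE 0.30, limma adjusted p = 0.174). The 3 probes measure 1 gene in the same animals and are not independent, and their pairwise Pearson r over the 9 arrays was 0.95 to 0.99. Over all tested probes, 1.23% passed at an adjusted p of 0.05, 0.695% with HFHSD higher and 0.537% with HFHSD lower. An unadjusted p under 0.05, which all 3 PPARG probes had, was found for 16.5% of probes, 7.71% with HFHSD higher, and for 6.74% of genes with HFHSD higher. The groups did not overlap for 10.9% of probes, 4.8% with HFHSD higher and 6.11% with HFHSD lower. By brightest probe they did not overlap for 13.1% of genes, 4.17% with HFHSD higher. PPARG was 1 of the 109 genes of that kind among 2613.

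**Figure D1:**
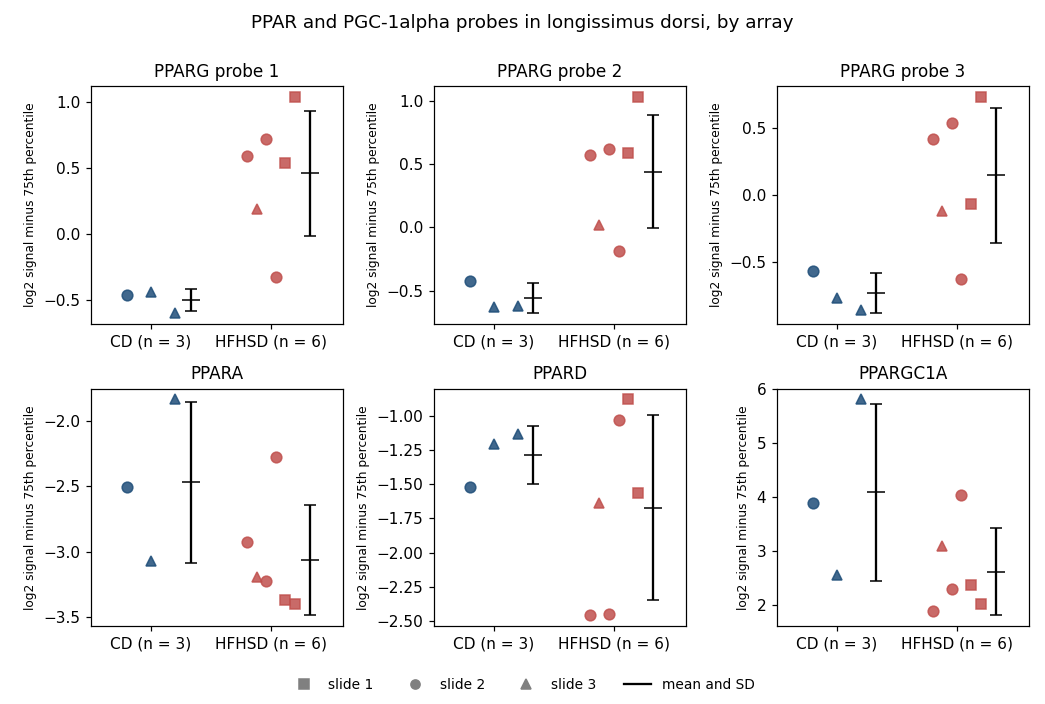
Log2 signal minus the array's 75th percentile (vertical axis, its range set for each panel) of the 6 tested probes of PPARG, PPARA, PPARD and PPARGC1A in 3 CD and 6 HFHSD animals. Each point is an array, its shape gives the slide, and the bars give the mean and SD; for PPARG probes 1 and 2 all HFHSD points lie above the CD points, and for PPARGC1A the CD point at 5.80 lies far above the others.

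PPARA, the receptor best known for fatty acid oxidation in liver, muscle and heart, was a dim transcript on these arrays and did not pass. The CD animals had -2.51 (CD 1), -3.07 (CD 2) and -1.84 (CD 3). The HFHSD animals ran from -3.40 to -2.28, with a median of -3.21. The groups overlapped: 4 of 6 HFHSD arrays were below all CD arrays, while HFHSD 4 was at the upper end. The probe was well above background on 6 of 6 HFHSD and 2 of 3 CD arrays, and the value of CD 1 is one near the background. The log2 difference was -0.59 (SE 0.32, 95% interval -1.32 to 0.13, limma adjusted p = 0.412). Without CD 3 it was -0.28 and without CD 2 it was -0.89.

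PPARD, the receptor found in most tissues and abundant in muscle, had 1 probe that could be tested. It read -1.52 (CD 1), -1.21 (CD 2) and -1.13 (CD 3) in CD. In HFHSD it ran from -2.46 to -0.88, with a median of -1.60. HFHSD values spread on both sides of the CD values: HFHSD 1 and HFHSD 3 were lowest at -2.46 and -2.45, and HFHSD 4 and HFHSD 5 were above all 3 CD arrays. The log2 difference was -0.38 (SE 0.38, 95% interval -1.22 to 0.46, limma adjusted p = 0.693). It was -0.23 without HFHSD 1 and -0.23 without HFHSD 3. The other PPARD probe was well above background only on HFHSD 6 and was not tested.

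PPARGC1A read lower in HFHSD than the CD mean in all 6 animals, with the widest spread of the 4 genes. The CD animals had 3.88 (CD 1), 2.56 (CD 2) and 5.80 (CD 3), a mean of 4.08 ± 1.63 (SD, n = 3). The HFHSD animals ran from 1.89 to 4.03, with a median of 2.32 and a mean of 2.61 ± 0.81 (SD, n = 6). CD 3 was far above the other 8 arrays, CD 1 and CD 2 lay inside the HFHSD range, and HFHSD 4 was the highest HFHSD array. The log2 difference was -1.47 (SE 0.68, 95% interval -2.98 to 0.048, limma adjusted p = 0.321). This is 2.76-fold lower, with an interval from 0.967-fold to 7.89-fold. The size rested on single CD animals: it was -0.60 without CD 3 and -2.23 without CD 2.

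None of the 6 tested probes of the 4 genes passed at an adjusted p of 0.05, and the intervals of PPARA, PPARD and PPARGC1A reach from decreases to increases, so equal levels are not shown. The direction of the brightest probe held within both slides that carried both diets. For PPARG the difference was 0.79 within slide 2 and 0.71 within slide 3, and for PPARGC1A it was -1.14 and -1.09. For PPARA it was -0.30 and -0.74, and for PPARD -0.46 and -0.47. Each slide had 1 array alone in its group, so these values carry no test. Without CD 1 the differences were 0.98 for PPARG, -0.61 for PPARA, -0.50 for PPARD and -1.57 for PPARGC1A.

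**Figure D2:**
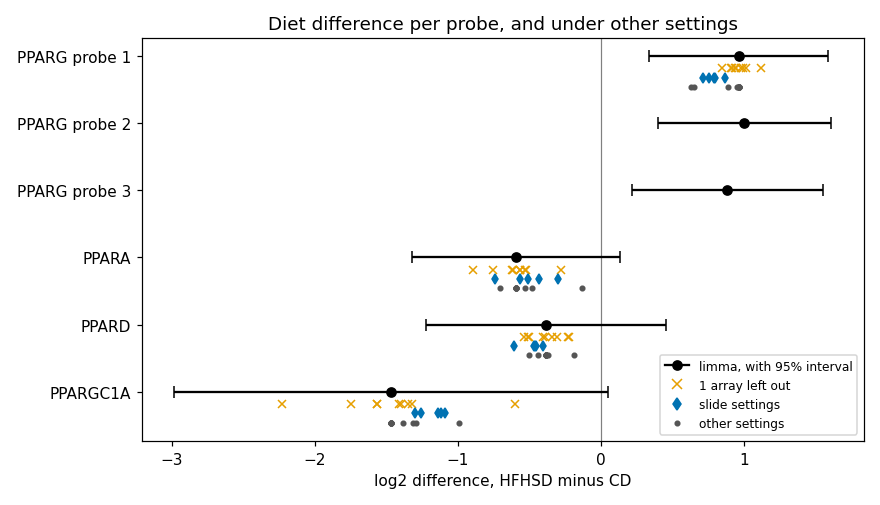
Log2 difference between HFHSD and CD (horizontal axis) for the 6 tested probes, as black points with 95% intervals from limma. Below the brightest probe of each gene stand the values with 1 array left out (crosses), with slide settings (diamonds) and with other settings (dots). PPARG stayed above 0 and the other genes below 0 in each, although some dots repeat the main value because the setting could not change it. PPARGC1A moved from -2.23 to -0.60 with 1 array left out.

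The genes were then set against each other within each array, which removes the scaling between arrays. PPARG relative to PPARGC1A differed between the diets by 2.43 on the log2 scale, with means of -2.15 ± 1.26 (SD, n = 6) for HFHSD animals and -4.58 ± 1.71 (SD, n = 3) for CD animals. The exact two-sided permutation p was 0.0476, and 0.119 when adjusted over the 6 pairs of genes. PPARG relative to PPARA differed by 1.55 (exact permutation p = 0.0476, adjusted 0.119) and relative to PPARD by 1.34 (exact permutation p = 0.0595, adjusted 0.119). In each of these 3 pairs, 5 of 6 HFHSD arrays were above all CD arrays. The 3 pairs share the same PPARG values and are not independent. Among PPARA, PPARD and PPARGC1A the pair differences were -0.21 to 1.08, with exact permutation p-values adjusted over the 6 pairs from 0.214 to 0.690. No pair passed after adjustment.

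Among the HFHSD animals, those with more PPARG tended to have less PPARGC1A. The Pearson r over the 6 arrays was -0.93 (exact permutation p = 0.0125, 0.075 adjusted over 6 pairs) and Spearman's rho was -0.83 (exact permutation p = 0.0583, adjusted 0.35). Without HFHSD 4 and HFHSD 6, the arrays farthest from the PPARG median, r was -0.85 over 4 arrays. PPARG and PPARA gave r = -0.83 (exact permutation p = 0.05, adjusted 0.15) and rho = -0.71 (exact permutation p = 0.136), and r became 0.090 without the same 2 arrays, so that relation rested on them. The other 4 pairs had r between -0.44 and 0.75, with adjusted exact permutation p-values from 0.178 to 0.824. Within slide 2, with 3 HFHSD arrays, PPARG and PPARGC1A gave r = -0.96; the other slides held fewer. None of the 6 pairs passed after adjustment.

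Among the RXR partners and cofactors of the PPARs, NCOA3 fell. Of 18 listed genes 10 were measured, 4 higher and 6 lower in HFHSD. Their median difference of -0.14 stood beside -0.085 over all 2613 tested genes, and became 0.048 with normexp background correction and percentile scaling. By brightest probe 2 passed, both lower, where 0.995% of all genes passed, 0.498% higher and 0.498% lower. NCOA3, a coactivator of nuclear receptors, fell by 1.62 on the log2 scale (SE 0.27, limma adjusted p = 0.0285) but was well above background on only 3 of 6 HFHSD and 2 of 3 CD arrays. All 4 of its probes were lower and 2 passed. NCOA3 did not pass with normexp and percentile scaling, at -0.76 (limma adjusted p = 0.433), with normexp and quantile normalization, at -0.36 (limma adjusted p = 0.0902), or as the mean of its probes, at -0.96 (limma adjusted p = 0.0603).

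RXRB, 1 of the DNA-binding partners of the PPARs, had 1.62 to 1.98 in CD and 0.038 to 1.50 in HFHSD, without overlap, and a log2 difference of -0.99 that did not pass (SE 0.29, limma adjusted p = 0.119). NCOA2, another coactivator, differed by 0.35 (SE 0.19, limma adjusted p = 0.412). RXRG, the RXR of muscle, differed by 0.20 and the acetyltransferase EP300 by 0.11, neither of which passed. RXRB was -0.54 and NCOA2 0.14 with normexp and percentile scaling.

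The C/EBP family, apart from CEBPA, was lower in HFHSD in all 3 measured members of 6 listed, with 0 passing by limma and 3 of 3 at an unadjusted p under 0.05, against 18.4% of all genes. CEBPB, which acts early in fat cell formation and upstream of PPARG, had -0.78 (CD 1), -0.998 (CD 2) and -0.54 (CD 3), and ran from -2.72 to -1.17 in HFHSD. The groups did not overlap, and the log2 difference was -1.03 (SE 0.33, limma adjusted p = 0.152). CEBPG differed by -0.86 (SE 0.33, limma adjusted p = 0.230), and DDIT3, a stress-induced member that blocks other C/EBP proteins, by -0.83 (SE 0.32, limma adjusted p = 0.236). Without CD 3 CEBPG was -0.52 and DDIT3 -0.45, and with normexp and quantile normalization CEBPB was -0.46 and CEBPG -0.42. Groups with HFHSD lower and no overlap made up 8.88% of all genes.

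Of 12 measured genes among the other regulators of fat cell formation, 20 listed, 2 were higher and 10 lower, their median at -0.13 (0.096 with normexp and percentile scaling, 0.025 without CD 1) and 0 passing by limma. An unadjusted p under 0.05 was found for 2, against 18.4% of all genes. The groups did not overlap for 1 gene with HFHSD higher and 1 with HFHSD lower, against 4.17% and 8.88% of all genes. KLF5, a factor that raises PPARG transcription during fat cell formation, had -1.63 (CD 1), -2.57 (CD 2) and -2.40 (CD 3) and -1.42 to -0.74 in HFHSD. It did not overlap between the groups, and its log2 difference was 1.13 (SE 0.26, limma adjusted p = 0.0683). With normexp KLF5 was 0.33 under percentile scaling and 0.54 under quantile normalization, where it passed (limma adjusted p = 0.0372). KLF15, which is expressed in muscle and fat and takes part in glucose and amino acid metabolism, went the other way by -1.15 (SE 0.37, limma adjusted p = 0.157), also without overlap. GATA3, known to restrain the step from precursor to fat cell, differed by 0.54 and KLF4 by -0.37, with overlapping groups. GATA3 was 0.16 without CD 3 and 0.29 as the mean of its probes, and with normexp and percentile scaling KLF4 was -0.067 and KLF15 -0.73.

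Target genes of PPARG and C/EBPalpha in fat cells leaned upward. Of 23 listed genes 20 were measured, 15 higher and 5 lower, and their median difference was 0.42 against -0.085 over all genes; over all genes 1109 of 2613 were higher. By limma 1 passed, where 0.995% of all genes did, and 8 had an unadjusted p under 0.05, where 18.4% of all genes did. PLIN1, counted among the 15 and the 8, was well above background on HFHSD arrays only. CIDEA, a lipid droplet protein, rose from -1.19 ± 0.25 (SD, n = 3) to 0.31 ± 0.45 (SD, n = 6), without overlap, a log2 difference of 1.49 (SE 0.28, limma adjusted p = 0.0378). CIDEA was 0.95 and did not pass with normexp and percentile scaling (limma adjusted p = 0.222). SCD, which desaturates fatty acids newly made in the cell, had -2.44 to -1.23 in CD and -0.48 to 2.14 in HFHSD and differed by 2.43 (SE 0.55, limma adjusted p = 0.0652). Its 8 probes were all higher and a dimmer probe passed, at 3.04 (limma adjusted p = 0.0399). The 2 enzymes of the last step of triglyceride synthesis went apart: DGAT2 differed by 1.47 (SE 0.35, limma adjusted p = 0.0744), with 2 of 3 CD arrays well above background, and DGAT1 by -0.72 (SE 0.19, limma adjusted p = 0.0899). With normexp and percentile scaling DGAT2 was 0.37 and SCD 1.51, and DGAT2 was 0.90 as the mean of its probes. LPL, CD36 and ACSL1, targets that muscle fibres also express, differed by 0.12, 0.035 and 0.0049, or by 0.46, 0.44 and 0.42 with normexp and percentile scaling.

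Target genes of PPARA and PPARD in fatty acid oxidation did not lean to 1 side. Of 25 listed 19 were measured, 7 higher and 12 lower. The median was -0.17, or 0.035 under normexp with percentile scaling. By limma 1 gene of the list passed, where 0.995% of all genes did, and 4 had an unadjusted p under 0.05, where 18.4% of all genes did. CAT, the peroxisomal catalase, was the gene that passed. It rose from 4.53 ± 0.068 (SD, n = 3) to 5.33 ± 0.081 (SD, n = 6), a log2 difference of 0.80 (SE 0.15, limma adjusted p = 0.0401). Each of its 9 probes read higher, with 1 past the threshold. CAT was 1.31 and did not pass with normexp and percentile scaling (limma adjusted p = 0.108). ACADM, which oxidises medium-chain fatty acids, had 4.88 to 5.32 in CD and 5.62 to 5.97 in HFHSD and differed by 0.67 (SE 0.18, limma adjusted p = 0.0928). UCP3, a mitochondrial carrier of muscle, differed by -0.88 (SE 0.29, limma adjusted p = 0.155) and PDK4, a kinase that switches off pyruvate oxidation, by -0.79 (SE 0.35, limma adjusted p = 0.295). CPT1B, the muscle enzyme that commits fatty acids to oxidation, differed by -0.43 (limma adjusted p = 0.513), or by -0.22 without CD 1. With normexp and percentile scaling ACADM was 1.21, UCP3 -0.29, PDK4 -0.35 and CPT1B -0.023.

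Genes that act with PGC-1alpha did not pass. Of the 18 listed kinases and transcription factors that act with it, 8 were measured, 5 higher and 3 lower, with a median of 0.21 and 0 passing by limma. An unadjusted p under 0.05 was found for 1, against 18.4% of all genes. MEF2C, a muscle transcription factor that PGC-1alpha coactivates, differed by 0.93 (SE 0.36, limma adjusted p = 0.231), or by 0.60 without CD 3. Measured subunits of AMP-activated kinase, an energy sensor that phosphorylates PGC-1alpha, differed by 0.51 (PRKAG3), 0.42 (PRKAA2), 0.47 (PRKAB2) and -0.29 (PRKAB1). With normexp and percentile scaling these were 0.23, 0.90, 0.98 and 0.058, and PRKAG3 was 0.26 without CD 3.

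Of 24 listed PGC-1alpha targets in muscle 11 were measured, 10 of them lower, where 1504 of all 2613 genes were lower, and their median was -0.48. By brightest probe 0 passed with limma. An unadjusted p under 0.05 was found for 6, against 18.4% of all genes, and 6 did not overlap between the groups with HFHSD lower, against 8.88% of all genes. VEGFA, the growth factor of blood vessels, had 2.17 (CD 1), 2.46 (CD 2) and 3.99 (CD 3) and -0.93 to 1.18 in HFHSD, a log2 difference of -2.39 (SE 0.54, limma adjusted p = 0.0631). Both of its probes were lower and the dimmer one passed, at -2.33 (limma adjusted p = 0.0452). CS, the citrate synthase, differed by -0.79 (SE 0.20, limma adjusted p = 0.0825) with all 7 probes lower, COX5B by -0.63 and MDH2 by -0.61. CYCS, cytochrome c, had 12 probes, all lower; its brightest differed by -0.42 (0.016 with normexp and percentile scaling), and 1 dimmer probe passed at -1.30 (limma adjusted p = 0.0340). Under normexp with percentile scaling CS was -0.30, COX5B -0.19 and MDH2 -0.15, and the median of the list was -0.042. TFAM, which maintains mitochondrial DNA, differed by 0.0028.

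In all, 80 of the 130 different genes listed were measured and 4 passed by their brightest probe, CIDEA and CAT among those higher and NCOA3 among those lower. The lists were made with earlier results of these data known, a few genes are in 2 lists, and a share of 4 in 80 genes stands beside 0.995% of all tested genes. These calls rested on the full set of arrays. The number of genes that passed was 1 without HFHSD 1, 4 without HFHSD 4, and 0 without HFHSD 2, HFHSD 3, HFHSD 5, HFHSD 6, CD 1, CD 2 or CD 3.

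**Figure D3:**
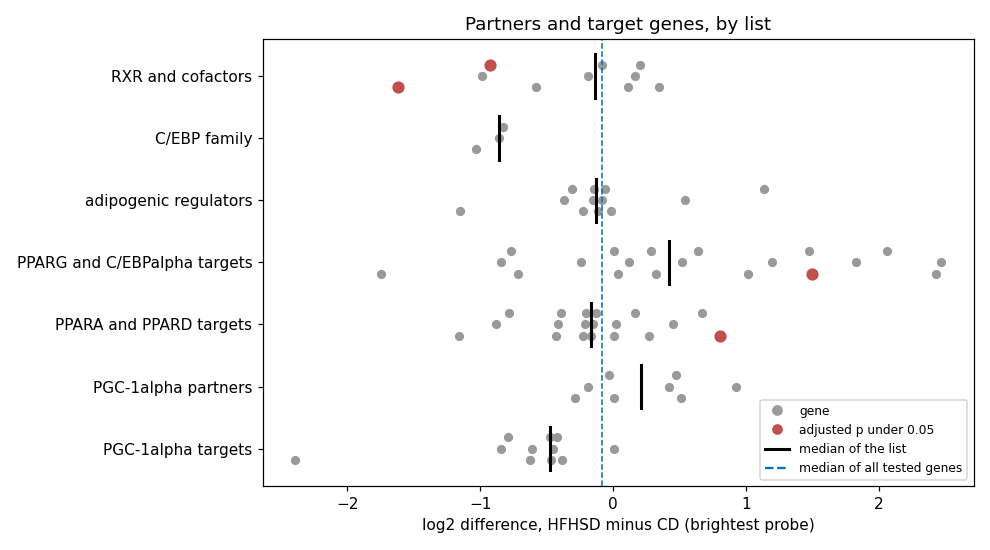
Log2 difference between HFHSD and CD by brightest probe (horizontal axis) for the measured genes of 7 lists of partners and targets (rows). Each point is a gene, red points passed at an adjusted p of 0.05, black bars are list medians, and the dashed line is the median of all tested genes at -0.085; the median is 0.42 for PPARG targets and -0.48 for PGC-1alpha targets.

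Over the 9 arrays, the genes whose pattern was most like that of PPARG among 2612 others were led by 2 genes of fat cells. ADIPOQ, the hormone adiponectin, had the highest Pearson r at 0.97 and CIDEC, a lipid droplet protein, the next at 0.96. They were followed by SULT1A3 (0.95), SDR16C5 (0.94) and MMD (0.93). SDR16C5 was well above background on only 5 of 9 arrays and CIDEC on 8, the others on all 9. ADIPOQ had -1.13 (CD 1), -1.25 (CD 2) and -0.72 (CD 3), and in HFHSD it ran from -0.94 on HFHSD 4 to 2.58 on HFHSD 6. HFHSD 4 was thus the HFHSD array closest to the CD arrays for ADIPOQ as for PPARG. These correlations were picked as the highest, the arrays share diet and slide, and no p is given.

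The patterns most like PPARGC1A were CYCS (r = 0.96), ZBTB9 (0.95), CANX (0.92), BSG (0.92) and PPARA (0.91). CYCS had 7.90 on CD 3, its highest array, and 6.50 on HFHSD 1, its lowest, the same arrays that were highest and lowest for PPARGC1A. It differed between the diets by -0.42 (SE 0.26, limma adjusted p = 0.466). PPARA was most like NSDHL (0.93), PPARGC1A (0.91), POR (0.90), CEBPG (0.90) and EIF4A1 (0.89). The genes most like PPARD were CTCFL (0.96), EPOR (0.90), DLK2 (0.89), CSN1S2 (0.88) and KBTBD3 (0.87), all dim, with 4 to 6 of 9 arrays well above background.

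**Figure D4:**
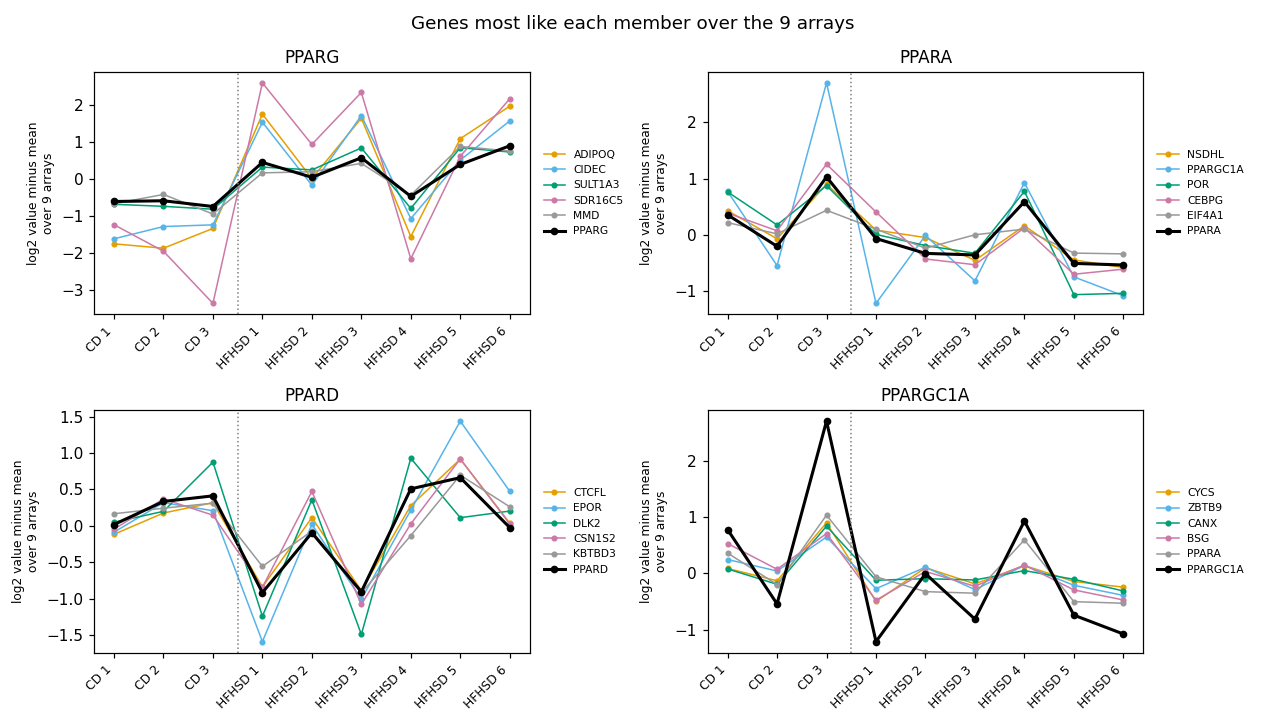
Log2 value minus its mean over the 9 arrays (vertical axis) of each gene (black) and the 5 genes with the highest Pearson r to it (colours), by array, with the 3 CD arrays left of the dotted line. PPARG and its 5 likest genes are low in CD and on HFHSD 4, and PPARGC1A peaks on CD 3 with smaller peaks of the other genes.

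Markers of fat cells were set beside PPARG, since muscle samples hold some fat. All 12 listed adipocyte markers were measured, 9 higher and 3 lower in HFHSD, and their median difference was 0.82. Of these, CIDEA passed by its brightest probe, where 0.995% of all genes passed. Of the 12, 10 are also in the list of PPARG targets, so the lists are not independent. The summed signal of the markers did not separate the diets: on the log2 scale it ran from 9.03 to 9.69 in CD and from 8.87 to 9.63 in HFHSD (exact permutation p = 0.810). GPD1, a glycerol phosphate enzyme that muscle also makes, carried 52.9% to 88.9% of that sum. The mean of the markers' log2 values, in which each gene counts equally, was higher, at 1.09 ± 0.36 (SD, n = 6) for HFHSD against 0.27 ± 0.14 (SD, n = 3) for CD. It did not overlap, and the difference was 0.82 (exact two-sided permutation p = 0.0119, the smallest these splits can give), or 0.80 without CD 1. The mean was not taken with normexp and percentile scaling, where single markers moved both ways. There CIDEC went from 2.06 to 0.47 and ADIPOQ from 2.47 to 1.76. LIPE went from 1.20 to 1.59 and FABP4 from 0.32 to 0.78. PLIN1, the lipid droplet coat of fat cells, was well above background on 5 of 6 HFHSD and 0 of 3 CD arrays. It thus met the filter only through HFHSD arrays, although it is counted among the markers that were higher and is 1 of the 12 in the mean. The mean and its permutation p were not taken without PLIN1, so they rest in part on that filter. The log2 difference of PLIN1 was 1.82, or -0.16 with normexp and percentile scaling. The number of markers well above background was 10 to 12 in HFHSD and 7 to 11 in CD. The 7 was that of CD 1, the array with the smallest share of probes above background, and the other CD arrays had 11.

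The relation of each gene to the markers depended on how the markers were combined. Within the 6 HFHSD arrays, r with the summed signal was -0.33 for PPARG (exact permutation p = 0.510, 0.885 adjusted over 4 genes; rho -0.31, exact permutation p = 0.564) and 0.0027 for PPARGC1A (exact permutation p = 0.996; rho -0.14, exact permutation p = 0.803). With the mean of log2 values, PLIN1 included, PPARG had r = 0.92 (exact permutation p = 0.0194, adjusted 0.0389) and rho = 0.77 (exact permutation p = 0.103, adjusted 0.181). PPARGC1A had r = -0.98 (exact permutation p = 0.00694, adjusted 0.0278) and rho = -0.94 (exact permutation p = 0.0167, adjusted 0.0667). Without HFHSD 2 and HFHSD 4, the arrays farthest from the median of that mean, r was 0.10 for PPARG and -0.52 for PPARGC1A over 4 arrays, so the relations rested on those arrays. PPARA and PPARD had r = -0.73 and -0.64 with the mean (exact permutation p = 0.106 and 0.176), and without the same 2 arrays 0.72 and -0.996, so the sign for PPARA rested on them.

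Markers of other cell types were summed in the same way. Their mean of log2 values was not taken, so that measure and its unadjusted permutation p stand for adipocyte markers only. For the summed signal of skeletal muscle, macrophage, fibroblast and endothelial markers, the differences were -0.18, -0.34, 0.13 and -0.093, with exact permutation p-values from 0.250 to 0.655. Of the 8 measured macrophage markers 7 were lower and 1 higher. The higher one, FCGR3A, passed at 1.19 (limma adjusted p = 0.0338), as did each of its 3 probes. The 4 measured liver markers, secreted plasma proteins among them, were 0.68 higher (exact permutation p = 0.0238, 0.143 adjusted over 6 marker lists). Their part in the values of the PPAR genes was not tested.

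**Figure D5:**
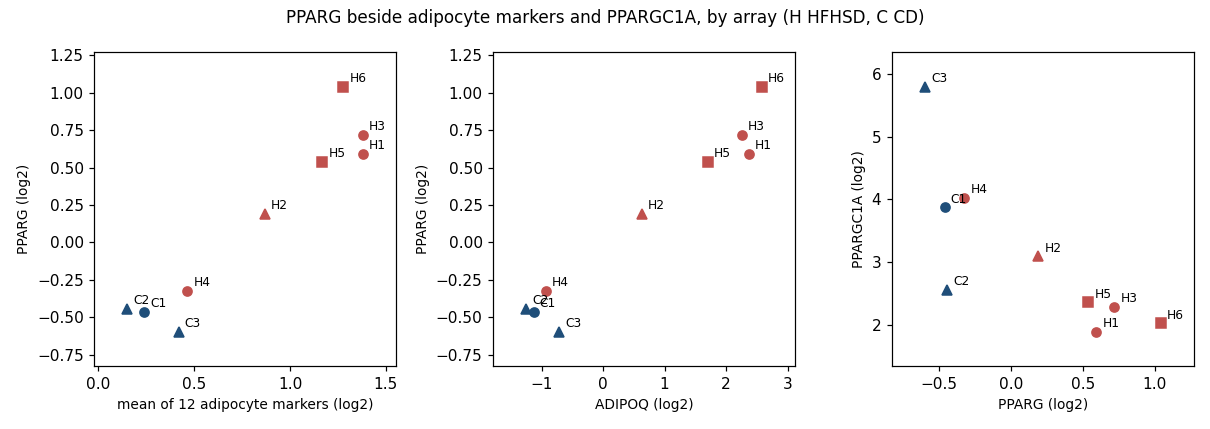
PPARG by brightest probe against the mean of 12 adipocyte markers (left) and against ADIPOQ (middle), and PPARGC1A against PPARG (right), as log2 values minus the 75th percentile, 1 point per array (H1 to H6 HFHSD in red, C1 to C3 CD in blue, shapes give the slide). HFHSD 4, with PPARG at -0.32, lies beside the CD arrays in the first 2 panels, and in the third CD 3 has the highest PPARGC1A at 5.80.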

How the data were processed

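Each array held Cy3-labelled RNA of 1 animal. Per the file headers, the authors extracted spot intensity values on a linear scale with Agilent Feature Extraction 10.7.3.1, background-subtracted and detrended within arrays and not scaled between them. The deposited table of the whole series held the same intensity values (0 spots differed on each array). The flags for spots well above background, saturated or outlying are the deposited calls of that software.

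Control spots and outlier spots were left out, spots of a probe were averaged as log2, and 22 of 43603 probes without a usable spot on some array were dropped. Accessions, without versions, were matched to the RefSeq gene table of Sscrofa11.1, used for names only, which named 6884 probes of 3194 genes. The array files name no genome build, so no coordinates are given. Probes well above background on at least 3 arrays were tested with limma 3.58.1 in R 4.3.3 (lmFit, eBayes, two-sided, no covariates, Benjamini-Hochberg over 27925 probes, threshold 0.05). The brightest probe by mean value stands for a gene. The script was tested on simulated data.

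The genes and lists were chosen with earlier results of these data known. Named were all probes of the members, up to 4 genes per list with the smallest p, and the 5 genes with the highest Pearson r to each member. RXRG, EP300, LPL, CD36, ACSL1, CPT1B, PRKAB1, TFAM, CYCS, ADIPOQ, PLIN1 and GPD1 were named after their values were seen. So were LEP, AQP7, LIPE, FABP4, RBP4, RETN, TUSC5 and FCGR3A. Comparisons within arrays and between members in HFHSD were also added after seeing the data. Replicate numbers were given by accession and pair no animals. The number of arrays limits the precision. Alternatives were other scaling, normexp with an offset of 50 (on median spot signals in place of the planned mean signals), other filters, slide as a block, array weights, a variance trend, the mean of a gene's probes, and each array left out. A gene of the lists is counted with its list but not reported here by name.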

Additional observations from a re-analysis of the deposited data

Results flagged for a closer look

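Among the 6 HFHSD arrays, 1 of 34 probes examined had an array that stood apart from the rest. For NCOA3, HFHSD 1 had a value of -2.94, while the other 5 HFHSD arrays had -4.14 to -3.77. Chance alone sets apart an array in about 1 of 20 such groups. All 6 HFHSD values were below the CD values, which ran from -2.34 to -1.98, and without HFHSD 1 the log2 difference was larger, at -1.79. No array of the PPAR genes or of PPARGC1A stood apart in HFHSD, and the 3 CD arrays were too few to be examined in this way.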

How the results depend on the processing

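The PPARG, PPARA, PPARD and PPARGC1A differences kept their direction in 24, 23, 24 and 24 alternatives. Some of these could not change the difference itself: the deposited table, the filters, the variance trend and the permutation test. The mean of a gene's probes could not change it either for PPARA, PPARD and PPARGC1A, with 1 tested probe each. PPARG ran from 0.63 to 1.12, with limma adjusted p from 0.0549 (without HFHSD 4) to 0.489; by the exact permutation test its 0.96 had an unadjusted p of 0.0238. PPARA ran from -0.89 to -0.13, PPARD from -0.61 to -0.19 and PPARGC1A from -2.23 to -0.60. PPARA had no value in the probes well above background on all 9 arrays, CEBPA had none in any setting, and values within a slide carry no test. Without slide 1 was chosen after seeing the data. With normexp and percentile scaling the median of all tested probes was -0.17 against -0.024. The number of probes that passed limma, 344, was 88 with normexp and percentile scaling, 856 with normexp and quantile normalization, 66 with no filter, 736 with probes well above background on all 9 arrays, 84 with slide as a fixed block, 677 as a random block, 1205 with array weights, 612 with a variance trend, 57 without slide 1, and 25 (without CD 3) to 324 (without HFHSD 4) with an array left out. For the 4 list genes that passed, the count was 0 with normexp and percentile scaling, with no filter, with the fixed block and without slide 1. It was 8 with normexp and quantile normalization and with array weights, 9 with all 9 arrays, 7 with a variance trend, 1 with the mean of a gene's probes, and 0 to 4 with an array left out. Medians changed sign for RXR partners and cofactors (0.048), other regulators (0.096) and PPARA and PPARD targets (0.035) with normexp and percentile scaling; for other regulators they ran from -0.21 to 0.025 (without CD 1) with an array left out. The correlations with summed markers in HFHSD changed sign with the mean of log2 values for PPARG (0.92), PPARA (-0.73) and PPARGC1A (-0.98), with normexp and percentile scaling for PPARD (0.14) and PPARGC1A (-0.11), and with quantile normalization for PPARGC1A (-0.20). With an array left out they ran from -0.54 to 0.34 for PPARG, from -0.46 to 0.18 for PPARD and from -0.53 to 0.39 for PPARGC1A. PPARA minus PPARD within arrays was 0.17 without slide 1 and -0.55 to 0.028 with an array left out. In these reversals the cause was not tested. No paired analysis was made, since each array is of a different animal and the labels pair none of them. Dim probes near background, PPARA on CD 1 among them, limit what the signals can show.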
